A study of Mus musculus with 9 samples.

Results

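CD45 is the surface phosphatase that nearly all leukocytes carry, and sorting against it is the usual way to remove them from a preparation of endothelial cells (ECs). The genes described here are 40 genes of macrophages and other leukocytes, followed in lung ECs that had been sorted without CD45 and CD11b. They were taken as every probe set on the array that names 1 of these genes alone. All 40 genes were measured, out of 18193 genes on the array, by 68 of the 34945 probe sets that name a single gene, and no filter on low values was applied. They were read in 3 groups, namely 19 macrophage genes, 18 genes shared by many leukocytes and 3 neutrophil genes. A gene with several probe sets (16 of the 40) is given by the one with the highest mean level, and its other probe sets are described further on.

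The cells came from female NSG mice, which lack mature T, B and NK cells but keep macrophages and neutrophils, and the mice were 6 to 8 weeks old. Healthy mice received control IgG. Metastatic mice were injected intravenously with GFP-labelled cells of MDA-MB-231-LM2, which derives from a human breast cancer and grows in the lung, and received either control IgG or the anti-VEGF antibody B20.4.1.1 at 10 mg/kg, with lungs taken on day 21. Each of the 3 groups, called healthy IgG, metastasis IgG and metastasis anti-VEGF below, had 3 arrays that the labels name biological replicates. The sort kept cells with CD31 on their surface and discarded those with GFP or with CD45 or CD11b (leukocytes), CD326 (epithelium), CD140a or CD140b (fibroblasts and pericytes), and the metastatic mice had been chosen for a comparable tumor load.

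Lung macrophages live in the air spaces and in the tissue around vessels, and blood monocytes add to them when tissue is inflamed. They engulf particles through scavenger and Fc receptors, digest them in lysosomes, and are the main source of C1q, the complement protein that opens the classical pathway. General leukocyte genes serve functions that most white blood cells share, such as integrin adhesion, ITAM signaling, the oxidative burst and movement through the actin skeleton. Most of these genes are textbook markers of blood cells, although some, such as Ctss and Apoe, are also expressed by other cells.

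Many myeloid genes are driven by PU.1, the transcription factor encoded by Spi1, which binds purine-rich sites with the letters AGGAAGT. RefSeq promoters (build GRCm38.p6) were at hand for 29 of the 40 genes. In the 250 bases before the start, these letters stood on either strand in 9 of the 29 genes (31.0%), against 8.80% of 27025 genes in the whole promoter table. The longer GAGGAAGT, which contains them, was found in C1qc, Cd37 and S100a8, against 2.79% of all genes. The bare core GGAA, which lies within both, was in all 29 and in 94.2% of all genes. Of the 14 macrophage genes with a promoter, C1qb, C1qc, Fcgr1, Lyz2 and Mrc1 held AGGAAGT. In the other lists Cd37, Hcls1, Ptprc and S100a8 held it. Of these 9 genes, Cd37, Fcgr1, Hcls1, Ptprc and S100a8 did not pass the test in metastasis IgG against healthy IgG. These matches are a description of the letters and no measure of binding, by PU.1 or by any other factor. Below, C1qb, C1qc and Lyz2 are shown because they rose in metastatic lungs, and Fcgr1 because its promoter holds the same letters while its level did not pass the test. Each line gives the 250 bases 5′ to 3′ on the gene's strand, and capitals mark AGGAAGT or its reverse complement.
C1qb (chr4:136886201-136886450, minus strand): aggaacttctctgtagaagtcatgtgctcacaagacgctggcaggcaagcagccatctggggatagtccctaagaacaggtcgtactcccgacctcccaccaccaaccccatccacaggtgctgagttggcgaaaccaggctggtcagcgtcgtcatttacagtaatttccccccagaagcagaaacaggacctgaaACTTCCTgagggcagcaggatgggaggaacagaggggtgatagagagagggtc
C1qc (chr4:136892915-136893164, minus strand): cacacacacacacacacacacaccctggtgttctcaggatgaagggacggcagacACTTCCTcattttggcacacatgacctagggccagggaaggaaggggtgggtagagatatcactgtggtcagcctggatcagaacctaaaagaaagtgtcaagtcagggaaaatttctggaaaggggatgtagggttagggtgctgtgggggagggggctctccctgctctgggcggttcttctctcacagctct
Lyz2 (chr10:117282273-117282522, minus strand): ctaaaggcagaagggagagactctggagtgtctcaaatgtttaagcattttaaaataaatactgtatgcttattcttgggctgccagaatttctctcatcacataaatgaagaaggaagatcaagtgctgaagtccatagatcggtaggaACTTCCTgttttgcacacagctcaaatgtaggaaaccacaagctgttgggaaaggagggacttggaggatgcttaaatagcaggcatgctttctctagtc
Fcgr1 (chr3:96293970-96294219, minus strand): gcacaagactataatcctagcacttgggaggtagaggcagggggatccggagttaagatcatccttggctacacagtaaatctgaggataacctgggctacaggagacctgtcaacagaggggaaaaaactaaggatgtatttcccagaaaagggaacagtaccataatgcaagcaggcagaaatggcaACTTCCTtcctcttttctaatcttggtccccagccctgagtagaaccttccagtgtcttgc

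The labelled cell type was checked against endothelial genes, whose levels hardly varied between arrays. Pecam1, which encodes the CD31 used for sorting, lay between 13.32 and 13.47 log2 units in the 9 arrays, and the mean of 14 endothelial genes between 12.87 and 12.92. Such bright genes describe the main cell type and do not measure the share of other cells. Arrays of the same group correlated at 0.988 or more over all 45101 probe sets, and arrays of different groups at 0.976 or more. Healthy IgG array 1 stood apart for genes of other cells. It was the lowest of all 9 arrays in 24 of the 40 genes (60.0%), against 9.96% of all genes, and also the lowest healthy array in all 9 epithelial and all 7 fibroblast genes listed. The calls that were lost without it are named beside the results below. RNA integrity was read from the beta-actin control probes as the 3′ signal less the 5′ signal in log2 units, which was 0.609 to 0.62 in healthy IgG, 0.488 to 0.555 in metastasis IgG and 0.526 to 0.62 in metastasis anti-VEGF arrays, and its part in the results was not tested.

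The genes of the proteins used to exclude leukocytes were read first. Ptprc, which encodes CD45, had levels of 8.24, 8.82 and 9.24 log2 units in healthy IgG arrays, 9.25, 9.33 and 9.29 in metastasis IgG and 9.51, 9.35 and 9.35 in metastasis anti-VEGF. The 3 healthy arrays were widely spread and all lay below the metastatic ones, the highest of them narrowly. The difference between metastasis IgG and healthy IgG was 0.52 ± 0.21 log2 units (SE, n = 3 arrays per group), with an adjusted p of 0.187 in limma. Its second probe set gave -0.08. Itgam, which encodes CD11b, stood at 6.47, 6.91 and 6.76 in healthy IgG arrays and at 6.90, 7.24 and 6.73 in metastasis IgG, so that the groups overlapped, and its difference of 0.25 ± 0.15 did not pass the test (adjusted p = 0.392). Itgam was dim, with a mean level above that of 12.0% of all genes. Differences are compressed at such levels, so the missing call cannot show that Itgam was unchanged.

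Metastasis IgG was compared with healthy IgG to ask how these genes changed in sorted lung ECs once metastases had grown. Of 19 macrophage genes 13 were higher and none lower at an adjusted p under 0.05 in limma, where 5.55% of all genes were called higher and 3.46% lower. Their median difference was 0.59 log2 units, against -0.0011 for all genes. Of 18 general leukocyte genes 5 were higher and none lower, with a median of 0.46, and of 3 neutrophil genes 1 was higher. No test was made of the difference between the lists. The arrays of both groups did not overlap, with metastasis higher, in 15 macrophage and 10 general leukocyte genes, against 15.4% of all genes. In RNA of sorted cells, more cells of a type and more RNA per cell cannot be told apart.

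**Figure D1:**
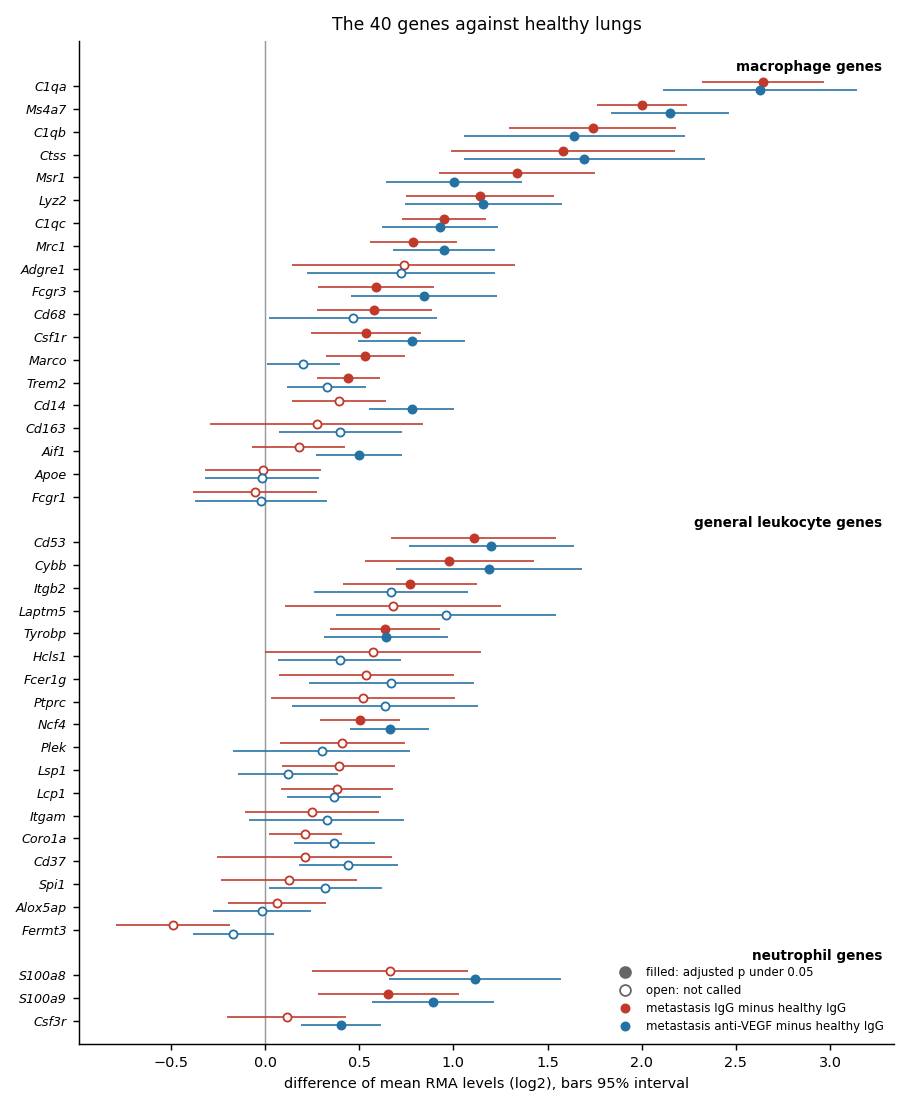
Differences of mean log2 level from healthy IgG for the 40 genes, ordered within each list, with metastasis IgG in red and metastasis anti-VEGF in blue (3 arrays per group). Bars are 95% intervals from limma and filled points passed an adjusted p under 0.05, with C1qa at 2.64 and 2.63 at the top and Fermt3 at -0.49 and -0.17 at the bottom of the leukocyte genes.

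All 3 chains of C1q rose. C1qa stood at 7.07, 7.48 and 7.41 log2 units in healthy IgG arrays and at 10.21, 9.82 and 9.85 in metastasis IgG. Every metastatic array was more than 2 units above every healthy one, and C1qa rose 6.25-fold, by 2.64 ± 0.14 log2 units (adjusted p = 5.1e-05). C1qb, the second chain, stood at 7.06, 7.58 and 7.38 in healthy IgG and at 9.42, 9.13 and 8.70 in metastasis IgG arrays, a rise of 1.74 ± 0.19 (adjusted p = 0.0014). C1qc, the third chain, went from 7.36, 7.17 and 7.21 to 8.26, 8.04 and 8.28, a rise of 0.95 ± 0.10 (adjusted p = 0.000967). In none of the chains did the groups overlap.

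Ms4a7, a membrane protein of tissue macrophages, was as clear. Its levels were 6.56, 6.36 and 6.62 in healthy IgG arrays and 8.63, 8.55 and 8.37 in metastasis IgG, a 4.0-fold rise (2.0 ± 0.10 log2 units, adjusted p = 4.6e-05). Ctss, a lysosomal cysteine protease that trims antigens, was 9.82, 10.60 and 11.03 in healthy IgG and 12.16, 11.96 and 12.08 in metastasis IgG arrays. The healthy arrays of Ctss spanned over 1 unit while the metastatic ones lay close together, and the rise was 1.58 ± 0.26 (adjusted p = 0.0084). Lyz2, the lysozyme of myeloid cells, stood at 10.99, 11.16 and 11.72 in healthy IgG and at 12.49, 12.34 and 12.47 in metastasis IgG, a rise of 1.14 ± 0.17 without overlap (adjusted p = 0.0055).

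Receptors that take up particles rose as well. Msr1, a scavenger receptor for modified lipoproteins, rose by 1.34 ± 0.18 (adjusted p = 0.0033), from 7.84 to 8.36 in healthy IgG arrays to 9.06 to 9.62 in metastasis IgG. Mrc1, the mannose receptor, rose by 0.79 ± 0.10 (adjusted p = 0.0027), and its healthy arrays lay within 8.98 to 9.03. Marco, a scavenger receptor of alveolar macrophages, rose by 0.53 ± 0.09 (adjusted p = 0.0106), with 8.09 to 8.24 in healthy IgG and 8.62 to 8.85 in metastasis IgG arrays. Among these receptors, too, no metastatic array overlapped a healthy one. Cd68, a glycoprotein of late endosomes, rose by 0.58 ± 0.13, and Fcgr3, a low-affinity receptor for IgG, by 0.59 ± 0.13. Trem2, a lipid-sensing receptor that signals through Tyrobp, rose by 0.44 ± 0.07.

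Csf1r, the receptor for the growth factor on which macrophages depend, was 8.58, 8.54 and 8.95 in healthy IgG and 9.20, 9.37 and 9.09 in metastasis IgG arrays. Its rise of 0.53 ± 0.13 passed the test only narrowly (adjusted p = 0.0376). Adgre1, an adhesion receptor that is the classical surface marker of mouse macrophages, stood at 7.04, 7.70 and 7.93 in healthy IgG and at 8.76, 8.03 and 8.09 in metastasis IgG. All metastatic arrays were above the healthy ones, but the spread was wide and 0.74 ± 0.26 did not pass (adjusted p = 0.128). Cd14, a co-receptor for bacterial lipopolysaccharide, also had no overlap, with a difference of 0.39 ± 0.11 (adjusted p = 0.0644).

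The remaining macrophage genes gave small differences. Fcgr1, the high-affinity receptor for IgG, stood at 9.27, 8.81 and 8.74 in healthy IgG and 8.75, 8.93 and 8.97 in metastasis IgG arrays, a difference of -0.05 ± 0.14. Apoe, an apolipoprotein that macrophages secrete, gave -0.01 ± 0.13. Aif1, an actin-binding protein of macrophages, gave 0.18 ± 0.11, and Cd163, the receptor for hemoglobin and haptoglobin, 0.27 ± 0.25. In these 4 genes the arrays of the groups overlapped and the adjusted p lay between 0.376 and 0.976. Aif1 and Cd163 were dim, with mean levels above those of 19.0% and 8.6% of all genes, where differences are compressed.

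**Figure D2:**
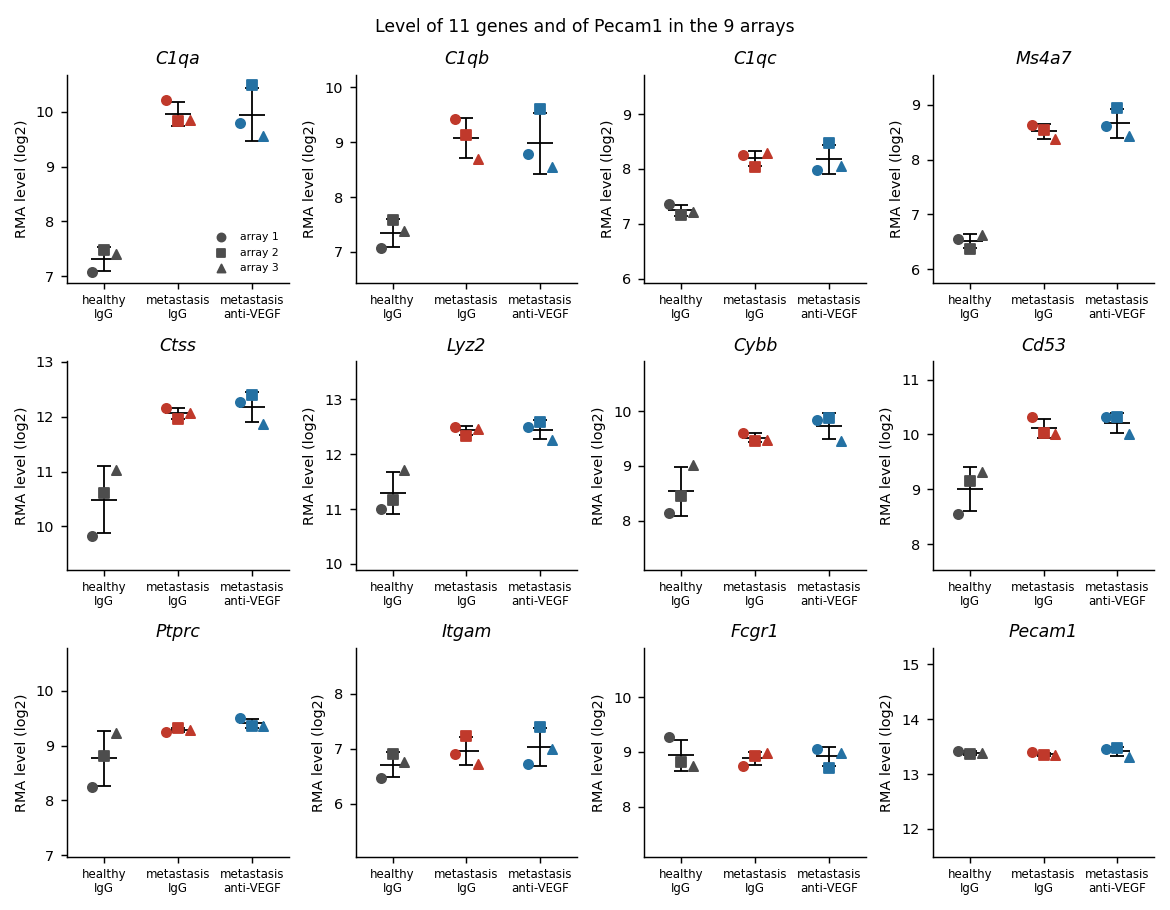
Log2 RMA level of 11 of the genes and of the endothelial gene Pecam1 in each of the 9 arrays, with the mean and SD of 3 arrays (every panel spans the same number of log2 units). C1qa, C1qb, C1qc and Ms4a7 stand higher in all 6 metastatic arrays than in the healthy ones, Ctss, Lyz2, Cybb and Cd53 do so with wider healthy groups, and Fcgr1 and Itgam overlap between groups.

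General leukocyte genes were ordered by function. Among the parts of the phagocyte oxidase, Cybb, its catalytic subunit, stood at 8.14, 8.45 and 9.02 log2 units in healthy IgG and at 9.61, 9.46 and 9.47 in metastasis IgG arrays. It rose by 0.98 ± 0.20 (adjusted p = 0.0195) with no overlap. Ncf4, a cytosolic subunit, stood at 6.98, 7.23 and 7.24 in healthy IgG and at 7.63, 7.63 and 7.70 in metastasis IgG, and rose by 0.50 ± 0.09 (adjusted p = 0.0142). Cd53, a tetraspanin of leukocytes, went from 8.55, 9.16 and 9.32 to 10.32, 10.03 and 10.00, a rise of 1.11 ± 0.19 (adjusted p = 0.0104). Cd37, another tetraspanin, gave 0.21 ± 0.20 with overlapping arrays.

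Of the adaptors that carry ITAM motifs, Tyrobp (DAP12) rose by 0.64 ± 0.13 (adjusted p = 0.019), from 7.48 to 7.89 in healthy IgG arrays to 8.29 to 8.53 in metastasis IgG. Fcer1g, the common chain of Fc receptors, gave 0.54 ± 0.20 with overlapping arrays (adjusted p = 0.151). Itgb2, the beta chain of leukocyte integrins, rose by 0.77 ± 0.15 (adjusted p = 0.0196) with no overlap, whereas its partner Itgam did not pass, as given above. Laptm5, a lysosomal membrane protein of leukocytes, gave 0.68 ± 0.25 (adjusted p = 0.143), and its healthy arrays at 8.40, 9.16 and 9.55 spread more than those of any other leukocyte gene here.

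Genes of the leukocyte cytoskeleton did not pass the test in the probe set used. Lcp1, an actin-bundling protein, gave 0.38 ± 0.13, Plek, a substrate of protein kinase C, 0.41 ± 0.14, Lsp1, an actin-binding protein, 0.39 ± 0.13, Coro1a, an actin regulator, 0.21 ± 0.08, and Hcls1, a cortactin-like protein, 0.57 ± 0.25. Fermt3, which activates integrins in leukocytes and platelets, was the one gene of the list on the lower side at -0.49 ± 0.13 (adjusted p = 0.059). Its healthy arrays stood at 10.56, 10.40 and 10.66 and its metastasis IgG arrays at 10.24, 9.78 and 10.14, with no overlap, as was the case on the lower side in 13.6% of all genes. Spi1, which encodes PU.1, gave 0.13 ± 0.16, and Alox5ap, needed for leukotriene synthesis, 0.06 ± 0.11.

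S100a8 and S100a9 form the calprotectin of neutrophils and monocytes. S100a9 stood at 8.05, 8.58 and 8.30 in healthy IgG arrays and at 9.08, 8.67 and 9.14 in metastasis IgG, and its rise of 0.65 ± 0.16 passed the test (adjusted p = 0.044). S100a8 stood at 6.95, 7.68 and 7.57 and then at 8.01, 7.97 and 8.21, and 0.66 ± 0.18 did not pass (adjusted p = 0.061). Neither overlapped between groups. Csf3r, the receptor for the growth factor of neutrophils, gave 0.12 ± 0.14 with overlap.

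Single probe sets were tested apart. Of 68 probe sets 26 were higher in metastasis IgG and none lower, where 4.43% of all single-gene probe sets were called higher and 2.98% lower. They were 17 of 30 macrophage, 8 of 35 general leukocyte and 1 of 3 neutrophil probe sets. All 3 probe sets of C1qb rose, by 1.74, 2.73 and 1.80 log2 units, and so did all 3 of Cybb, by 0.98, 1.18 and 0.68. Other genes were split. Ms4a7 had 2.0 and 0.22, Trem2 0.44 and -0.02, Marco 0.53 and 0.16, and Cd53 1.11 and -0.32 in its second probe set. Csf1r rose in 2 of 3 probe sets (0.53 in both) and gave -0.00 in the third, and Msr1 rose in 2 of 4 (1.34 and 0.74, against 0.16 and 0.31). Lcp1 rose in the probe set not used for the gene (0.46, adjusted p = 0.0458). Without a call in any probe set, Coro1a had 0.21, -0.11 and -0.08, and Laptm5 had 0.68, 0.45, 0.24, 0.19 and -0.04.

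Some of these calls depended on single arrays. Without healthy IgG array 1, 15 of the 19 called genes were kept, where higher calls over all genes went from 1010 to 682. Cd68, Csf1r, Fcgr3 and S100a9 were lost. C1qa then stood at 2.52, Ms4a7 at 2.03, Ctss at 1.25 and Ptprc at 0.26 (adjusted p = 0.33). Among genes that had not passed, Adgre1 went from 0.74 to 0.47, Laptm5 from 0.68 to 0.36, Itgam from 0.25 to 0.13 and S100a8 from 0.66 to 0.44, Spi1 went from 0.13 to 0.27 and Csf3r from 0.12 to 0.19, and Fcgr1 (0.11), Apoe (-0.10) and Alox5ap (-0.02) stayed near 0. Without healthy IgG array 3 the calls of general leukocyte genes went from 5 to 9, with Fcer1g, Laptm5, Plek and Ptprc added. Higher calls over all genes went from 1010 to 651 in that fit. Without metastasis IgG array 1 general leukocyte calls went to 2, and 12 of the 19 calls over all lists were kept. Higher calls over all genes were 626 there, and Cd68, Csf1r, Fcgr3 and S100a9 were again among the calls lost. The 12 genes C1qa, C1qb, C1qc, Ms4a7, Ctss, Msr1, Lyz2, Mrc1, Marco, Trem2, Cd53 and Ncf4 were called in each of the 6 fits that left 1 array out.

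Other genes of the same pathways were read from related lists, in which no gene was called lower. Over all genes, 5.55% were called higher and 3.46% lower. Of 11 genes of interstitial macrophages and monocytes, 3 were higher. Ms4a6c, a relative of Ms4a7, rose by 0.84 ± 0.18, Cx3cr1, the fractalkine receptor, by 0.67 ± 0.12, and F13a1, the A chain of clotting factor XIII, by 0.54 ± 0.12. The median of this list was 0.09, with 7 of its 11 genes above 0. Its arrays did not overlap in 3 genes on the higher and 2 on the lower side, against 15.4% and 13.6% of all genes. Lyve1 and Mertk, which enter this median, were bright, with mean levels above those of 99.1% and 93.2% of all genes. Which cells their RNA came from was not tested. None of 6 alveolar macrophage genes passed, the one of smallest p being Pparg, a lipid-sensing nuclear receptor, at 0.53 ± 0.14 (adjusted p = 0.0503). The median of the alveolar list was nonetheless 0.46, with 5 of 6 genes above 0. Healthy IgG array 1 was the lowest healthy array in all 6. Of 13 Fc receptor and ITAM signaling genes 3 were higher. Syk, the kinase that binds ITAMs, rose by 1.27 ± 0.10, Fcgr4 by 1.00 ± 0.14 and Fcgr2b, the inhibitory receptor for IgG, by 0.72 ± 0.13. Of 15 lysosome and lipid handling genes 4 rose, led by the cholesterol exporter Abca1 at 1.15 ± 0.11, Gpnmb, a glycoprotein of lipid-laden macrophages, at 0.65 ± 0.12, and the lipase Lpl at 0.53 ± 0.12. Cyba, the membrane partner of Cybb, rose by 0.30 ± 0.07 and was the only one of 3 further oxidase genes that passed. The adjusted p of the genes called in these lists lay between 0.000337 and 0.0422. The medians of the Fc receptor and ITAM, oxidase and lysosome lists were 0.06, 0.35 and 0.19. Without healthy IgG array 1 the calls of Ms4a6c, F13a1, Lpl, Plin2 and Cyba were lost, with adjusted p of 0.0818, 0.0684, 0.0822, 0.112 and 0.0952, which left 1 of 11, 2 of 15 and none of 3 genes in their lists, while Krt79 of the alveolar list passed on the lower side at -0.82. Cx3cr1, Syk, Fcgr4 and Abca1 were called in each of the 6 fits that left 1 array out. Several genes of these lists, such as Abca1, Lpl and Cyba, are also expressed by ECs.

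Lists of other blood cells held no called gene, where 5.55% of all genes were called higher and 3.46% lower. Among 8 myeloid transcription factor genes the smallest p was that of Cebpb at 0.45 ± 0.14, and among 9 further neutrophil genes that of Cxcr2, a chemokine receptor, at 0.34 ± 0.10. Among 7 dendritic cell genes it was Zbtb46, which ECs also express, at -0.16 ± 0.09, among 6 mast cell and basophil genes Tpsb2 at -0.31 ± 0.11, and among 12 lymphocyte genes Zap70 at 0.24 ± 0.08. Their adjusted p lay between 0.0664 and 0.359. The median difference of these 5 lists lay between -0.07 and 0.06.

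Genes of cells other than leukocytes moved as well, where 5.55% of all genes were called higher and 3.46% lower. Of 9 epithelial genes 1 passed, Sftpb, a surfactant protein, which was higher by 0.92 ± 0.20, while Epcam, which encodes the CD326 used for sorting, gave 0.04 ± 0.11. Of 7 fibroblast genes 3 were higher, namely Col1a1 by 1.48 ± 0.14, Col1a2 by 1.44 ± 0.20 and Col3a1 by 0.98 ± 0.15, while Pdgfra (CD140a) gave -0.45 ± 0.35. Of 6 pericyte and smooth muscle genes 2 were higher, Pdgfrb (CD140b) by 1.18 ± 0.24 and Rgs5 by 1.06 ± 0.21. Without healthy IgG array 1, Sftpb no longer passed (0.76, adjusted p = 0.0701) and Lum, a fibroblast gene, passed on the lower side at -0.46, while the 3 collagen genes were called in each of the 6 fits. None of 14 endothelial genes passed and Pecam1 gave -0.02 ± 0.07. The mean level of the epithelial list spanned 8.43 to 9.45 log2 units in healthy IgG, 9.16 to 9.54 in metastasis IgG and 9.10 to 9.53 in metastasis anti-VEGF arrays, so that the groups overlapped. The mean of the 19 macrophage genes spanned 8.29 to 8.45, 9.19 to 9.35 and 9.14 to 9.52 in the same order, with the healthy arrays apart from both metastatic groups. The general leukocyte, neutrophil, interstitial, Fc receptor and ITAM, oxidase and lysosome lists were also apart from both, but by narrower gaps. In the interstitial list the highest healthy value was 8.87 and the lowest metastatic value 8.92. In the lysosome list these values were 11.876 and 11.98. The pericyte and smooth muscle list was apart in metastasis IgG only, with 9.004 as highest healthy and 9.035 as lowest metastatic value. The alveolar and fibroblast lists overlapped. What part other cells had in these values was not tested.

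**Figure D3:**
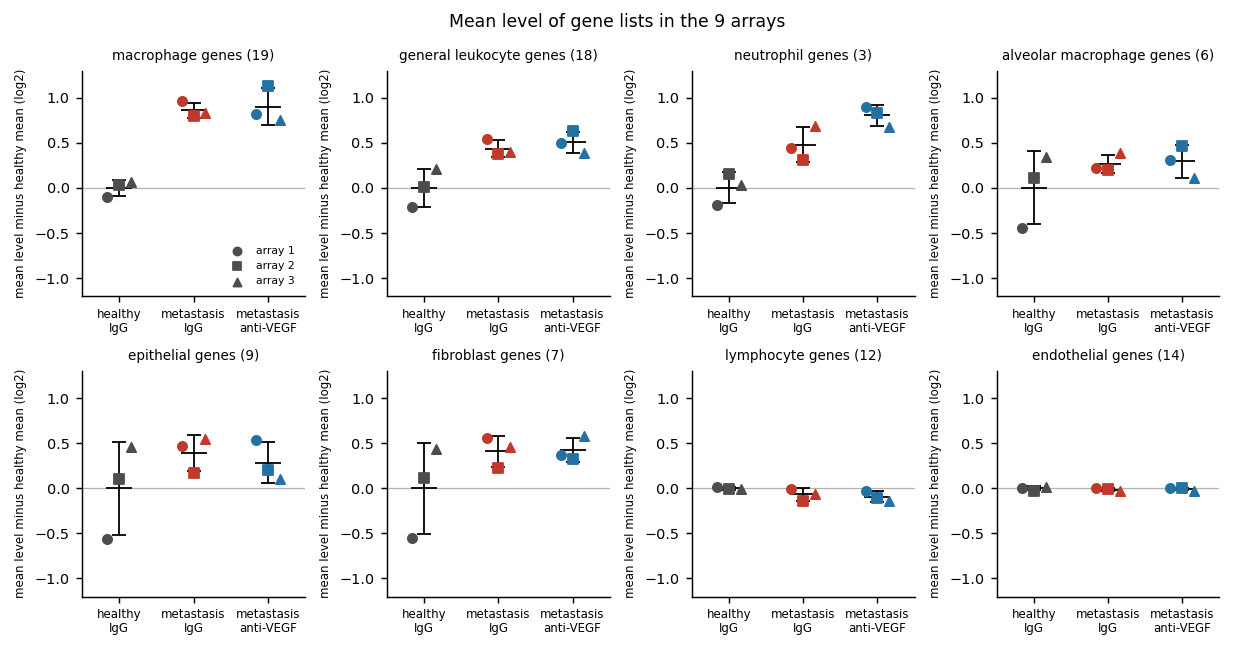
Mean log2 level of the 3 lists and of 5 lists of other cells in each of the 9 arrays, minus the mean of the 3 healthy IgG arrays, with group mean and SD (the number of genes in a list stands after its name). Macrophage genes lie at 0.75 to 1.13 above the healthy mean in the 6 metastatic arrays, healthy IgG array 1 is the lowest of all in the alveolar, epithelial and fibroblast lists, and endothelial genes stay close to 0.

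The comparison of metastasis anti-VEGF with metastasis IgG asked whether blocking VEGF altered these genes in metastatic lungs. It shares the metastasis IgG arrays with the comparison above. No gene of the 40, and no gene of all 18193 (0.00%), passed an adjusted p under 0.05 in limma. At an unadjusted p under 0.05 there were 8 of the 40 genes, against 8.04% of all genes, with Aif1, Cd14, Csf1r, Fermt3, Laptm5 and S100a8 on the higher side, where 3.83% of all genes lay, and Lsp1 and Marco on the lower side. The arrays did not overlap in 7 genes that were higher under anti-VEGF, against 6.20% of all genes, and in Marco, which was lower, against 6.91%. The median difference was 0.02 log2 units for macrophage, 0.11 for general leukocyte and 0.29 for neutrophil genes.

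The precision of these differences varied from gene to gene, with 95% intervals that reached 0.18 to 0.62 log2 units to either side. C1qa stood at 9.79, 10.49 and 9.56 in metastasis anti-VEGF arrays, around the level under IgG, and the interval of its difference ran from -0.52 to 0.49. Ms4a7 stood at 8.60, 8.94 and 8.44, with an interval of -0.17 to 0.46, and Ctss at 12.27, 12.40 and 11.88, with -0.20 to 0.43. Array 2 was the highest of the 3 anti-VEGF arrays in 17 of the 19 macrophage genes (89.5%), against 34.9% of all genes.

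Among macrophage genes without overlap, Cd14 gave the highest and Marco the lowest value. Cd14 stood at 10.57, 10.85 and 10.67 under anti-VEGF and at 10.48, 10.33 and 10.12 under IgG, a difference of 0.39 ± 0.12 (adjusted p = 0.463). Marco stood at 8.30, 8.47 and 8.36 under anti-VEGF and at 8.85, 8.66 and 8.62 under IgG, a difference of -0.33 ± 0.10 (adjusted p = 0.459). S100a8 stood at 8.54, 8.74 and 8.26 under anti-VEGF, all above the IgG arrays, with a difference of 0.45 ± 0.13 (adjusted p = 0.459). Msr1 gave -0.33 ± 0.18, with overlap, the lowest value of the macrophage list.

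**Figure D4:**
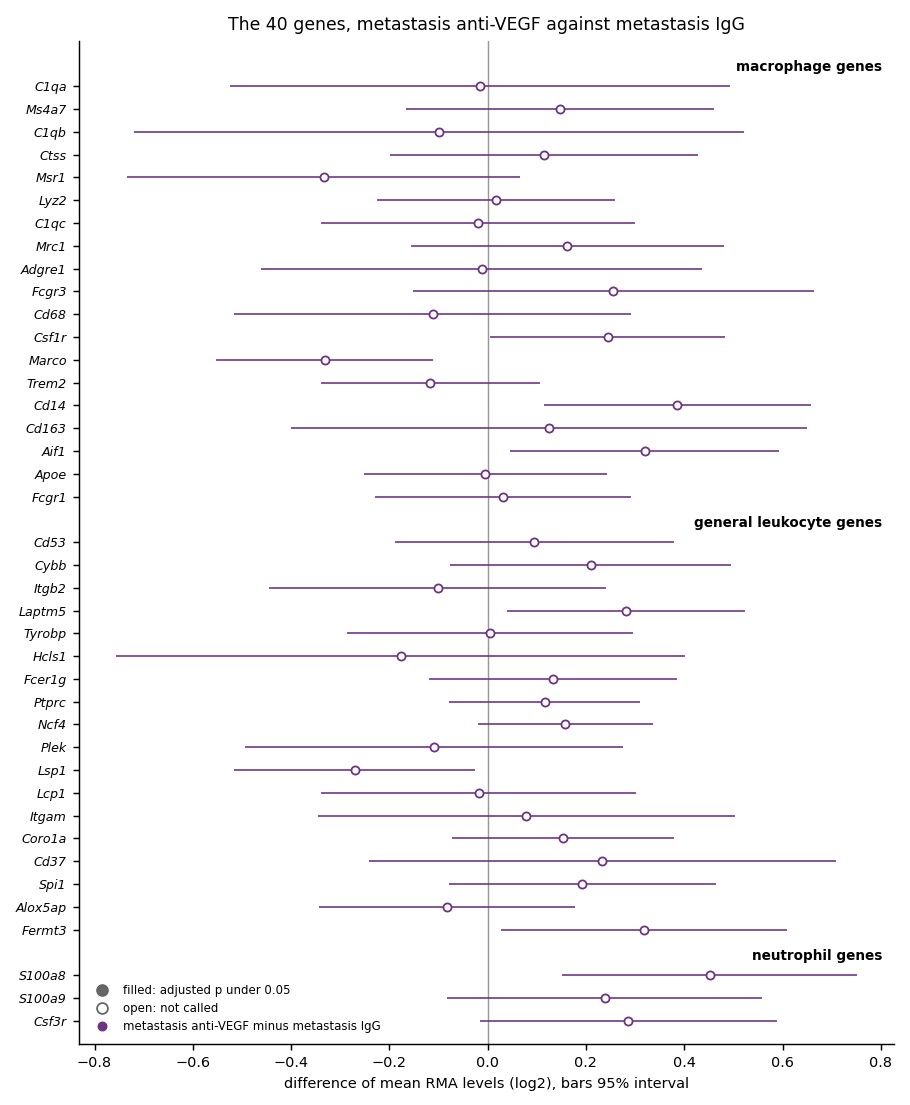
Differences of mean log2 level between metastasis anti-VEGF and metastasis IgG for the 40 genes, with 95% intervals from limma (3 arrays per group). All points are open since no gene passed an adjusted p under 0.05, and they run from -0.33 for Msr1 to 0.45 for S100a8.

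Against healthy IgG, metastasis anti-VEGF arrays gave 12 of 19 macrophage genes higher, 4 of 18 general leukocyte genes and 3 of 3 neutrophil genes, with none lower, where 4.15% of all genes were called higher and 2.29% lower. The healthy arrays are those of the first comparison. C1qa rose by 2.63 ± 0.23, Ms4a7 by 2.15 ± 0.14, Ctss by 1.70 ± 0.28, C1qb by 1.64 ± 0.26 and Lyz2 by 1.16 ± 0.18. The median difference was 0.78 for macrophage, 0.42 for general leukocyte and 0.89 for neutrophil genes, against -0.0079 for all genes. Ptprc gave 0.64 ± 0.22 (adjusted p = 0.132).

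Of the related lists, 2 of 11 interstitial macrophage and monocyte genes were higher than in healthy IgG under anti-VEGF, Cx3cr1 by 0.86 ± 0.09 and Ms4a6c by 0.90 ± 0.13. Over all genes, 4.15% were called higher in this comparison and 2.29% lower. Syk at 1.11 ± 0.09 and Fcgr4 at 0.82 ± 0.15 were the 2 of 13 Fc receptor and ITAM signaling genes that rose. Abca1 rose by 1.29 ± 0.11 and Lipa, the acid lipase of lysosomes, by 0.34 ± 0.08. Of 9 further neutrophil genes, Cxcr2 rose by 0.42 ± 0.09 and Mmp9, a protease of neutrophil granules, by 0.44 ± 0.09. Rac2, a GTPase that activates the oxidase, rose by 0.46 ± 0.11. No alveolar macrophage, dendritic cell, lymphocyte or mast cell gene passed. The median difference was 0.40 for the alveolar list, with 5 of 6 genes above 0, and 0.09 for the interstitial macrophage and monocyte list. Genes of other cells were also called, with Col1a1 higher by 1.33 ± 0.15, Col1a2 by 1.24 ± 0.20, Col3a1 by 0.99 ± 0.15 and Pdgfrb by 1.15 ± 0.22, and the endothelial gene Eng lower at -0.38 ± 0.08, and their part in the results was not tested. Without healthy IgG array 1 the calls of Lipa, Cxcr2, Mmp9, Rac2 and Eng were lost, with adjusted p of 0.0973, 0.0914, 0.0762, 0.102 and 0.11, so that no further neutrophil, oxidase or endothelial gene passed, while Clec7a, a receptor for fungal glucans, was added on the higher side and Pdgfra on the lower. Cx3cr1, Ms4a6c, Syk, Abca1 and the 3 collagen genes were called in each of the 6 fits that left 1 array out.

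Of the 68 probe sets, 26 were higher under anti-VEGF than in healthy IgG and none lower, against 3.32% of all single-gene probe sets called higher and 2.09% lower. Plek rose in the 2 probe sets not used for the gene (0.46 and 0.75, against 0.30), and Lcp1 rose in its second probe set (0.55, against 0.36). Cybb rose in 2 of 3 (1.19 and 1.04, against 0.53), Csf1r in 2 of 3 (0.78 and 0.53, against -0.03) and Msr1 in 2 of 4 (1.00 and 0.59, against 0.20 and -0.03). Ms4a7 had 2.15 and 0.31, and Cd53 1.20 and -0.49, with the first of each called. Without a call, Trem2 had 0.33 and -0.01, Ptprc 0.64 and -0.02, Coro1a 0.37, 0.05 and -0.15, and Fermt3 -0.17, -0.16, -0.10 and 0.05. Between the metastatic groups, the probe sets of 13 of 16 genes differed in sign, and none was called.

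Both metastatic groups had 19 called genes against the same healthy arrays. Cd68, Itgb2, Marco and Trem2 passed only under IgG, with differences from healthy IgG of 0.58, 0.77, 0.53 and 0.44 there and of 0.47, 0.67, 0.20 and 0.33 under anti-VEGF. Aif1, Cd14, Csf3r and S100a8 passed only under anti-VEGF, with 0.50, 0.78, 0.40 and 1.12 there and 0.18, 0.39, 0.12 and 0.66 under IgG. For none of these 8 genes did the difference between the metastatic groups itself pass the test. S100a8 rose 2.17-fold under anti-VEGF (adjusted p = 0.0148) and S100a9 1.86-fold (adjusted p = 0.0088). Without anti-VEGF array 2, 12 of the 19 calls were kept, general leukocyte calls went from 4 to 2 and neutrophil calls from 3 to 1. General leukocyte calls also went to 2 without healthy IgG array 2. Over all genes, higher calls went from 755 to 459 without anti-VEGF array 2, to 458 without healthy IgG array 2 and to 509 without healthy IgG array 1. Without healthy IgG array 1, 17 of the 19 calls were kept, Fcgr3 and Tyrobp were lost and Spi1 was added, while Ms4a7 stood at 2.17, Ctss at 1.36 and S100a8 at 0.89. Among genes without a call, Adgre1 went from 0.72 to 0.46, Ptprc from 0.64 to 0.38, Itgam from 0.33 to 0.205, Plek from 0.30 to 0.18 and Lsp1 from 0.12 to -0.00.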

How the data were processed

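RNA of sorted lung ECs was hybridized to Affymetrix mouse genome arrays after amplification from a low input. The deposited values are log2 intensities of 45101 probe sets in 9 arrays, which the authors obtained by RMA with the software Chipster 3.8.0, and they were used as they are. RMA gives no call of presence and compresses differences of dim probes. Of all probe sets, 9211 had no gene name in the platform annotation and 932 named several genes, and these were left out.

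Each comparison used its own 6 arrays and was fitted by limma 3.58.1 under R 4.3.3, using lmFit and eBayes without a block, as the methods of the study name this kind of test. A gene was represented by its probe set of highest mean. The p-values were adjusted after Benjamini-Hochberg over 18193 genes, or over 34945 single-gene probe sets, and calls were made at 0.05. The number of arrays limits the precision. The test was checked on simulated data with known changes.

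All 40 genes are named, and against healthy IgG the probe sets that differ in call or sign. From each related list up to 3 called genes of largest change are named, or that of smallest p where none was called. Lipa, Lyve1, Mertk, Mmp9, Rac2 and Eng, and genes whose call changed without healthy IgG array 1, were named after their values were seen. Genes of sorting markers were added. The genes and lists were chosen with earlier results of these data known.

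Tried in turn were 1 shared fit of all 9 arrays, replicate number as block, filters on dim genes (at the median or the 25th percentile), averaged probe sets per gene, use of probe sets that carry no shared suffix, each probe set tested alone, centring on the median, another round of quantile normalization, eBayes with trend and robust estimation, weights per array, the cut-offs of the study (0.75 log2 units with an unadjusted p under 0.05 and an adjusted p under 0.25) and the removal of each array. Promoters came from RefSeq tables, and plots were made by matplotlib 3.10.9 under Python 3.11.15.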

Additional observations from a re-analysis of the deposited data

How the results depend on the processing

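In metastasis IgG against healthy IgG, 13 macrophage, 5 general leukocyte and 1 neutrophil gene were called higher and no gene of these lists lower. With 1 array left out, the general leukocyte count ran from 2 to 9, the neutrophil count from 0 to 1, the neutrophil median difference from 0.44 to 0.79 log2 units, and the genes called over the whole array from 603 to 891 higher and 266 to 587 lower, where 1010 and 630 were called with all arrays. Fermt3 became 1 general leukocyte gene called lower in the fit of all 9 arrays, with the replicate block, with either filter on dim genes, with centring on the median and with trend and robust settings. Neutrophil calls were 2 in the fit of all 9 arrays and with trend and robust settings. They were 0 with the replicate block, with the filter at the median and at the thresholds of the study. The filter at the median, which left 19 of the 40 genes, gave 8 macrophage and 2 general leukocyte calls. The filter at the 25th percentile moved the macrophage median from 0.59 to 0.74. Probe sets without a shared suffix moved the neutrophil median from 0.65 to 0.39 and reversed Trem2 to -0.0237. The thresholds of the study gave 8 macrophage and 3 general leukocyte calls, with 400 genes higher and 107 lower on the array. Trend and robust settings gave 956 genes lower.

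In metastasis anti-VEGF against healthy IgG, with 12, 4 and 3 calls, leaving out 1 array gave 2 to 6 general leukocyte and 1 to 3 neutrophil calls, and 458 to 750 genes higher and 177 to 389 lower on the array, against 755 and 417. The fit of all 9 arrays gave 7 general leukocyte calls, and trend and robust settings gave 9, with 775 genes lower on the array. The filter at the median gave 7 macrophage and 0 neutrophil calls, and probe sets without a shared suffix a neutrophil median of 0.65, where 0.89 was found before. The thresholds of the study gave 336 genes higher and 94 lower. Metastasis anti-VEGF against metastasis IgG gave 0 calls under every alternative that was run. Some of these fits used fewer genes or arrays, and the cause of the shifts was not tested.

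The replicate numbers are shared by the groups in the labels. Deviations of arrays with the same number correlated between -0.076 and 0.014, and those of arrays with different numbers between -0.145 and 0.177. These values cannot tell whether arrays with the same number were handled together. With the replicate block, macrophage calls were 11 in both comparisons with healthy IgG, general leukocyte calls 4 and 5 and neutrophil calls 0 and 2, and genes called lower under anti-VEGF went from 417 to 266.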
